A study of Mus musculus with 28 samples.

Results

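The 9 genes described here, Hk1, Hk2, Pfkl, Pfkm, Pfkp, Aldoa, Aldoc, Ldha and Ldhb, are isoform genes of 4 enzyme families of glycolysis and lactate metabolism. They were chosen by name, and all 9 of the 23453 genes of the exonic count table, and of the 20422 genes of the intronic count table, were found. The data are single-cell RNA-seq of 28 mouse brain cells from the cortex. By their labels, 12 were neurons and 8 were astrocytes from C57/BL6 primary cultures, taken up with a pipette, and 8 were interneurons of C57/BL6/N mice, drawn by patch clamp pipette from acute slices. No cell received a treatment by the labels. The protocol text for the cultured cells describes a 3-month-old male mouse whose brain was fixed and sectioned. This text does not describe a primary culture, so the age of the animals behind the cultured cells cannot be taken from it. The paper on these data prepared its dispersed mouse neuron and astrocyte cultures from embryos of both sexes. It does not state this for the RNA-seq cells by name. The protocol text names neither the animal nor the culture of any cell. The cultured cells were made into libraries with a TruSeq Nano DNA kit and run on a NextSeq 500. The interneurons went through a TruSeq Stranded kit and a HiSeq 2500, so strain, preparation, library and sequencer cannot be told apart for them.

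Both tables name their columns by codes found in no sample label, so 0 of the 28 columns were assigned to a labelled cell type. Values are given per column and over 3 blocks of codes. The BRP564 block holds the 8 columns BRP564 and BRP566 to BRP572. The BRP528 block holds the other 12 BRP columns, and the F block holds the 8 columns that begin with F. Block sizes equal those of the labelled groups, but a block is not a labelled group here, and no test, standard deviation or p-value is given between blocks. Exonic totals ranged from 12969692 to 19798892 counts per column in the BRP564 block, from 17483754 to 26770944 in the BRP528 block and from 838343 to 14831505 in the F block. Levels are counts scaled to a column total of 1000000, abbreviated CPM. A gene with 0 counts in a column may be at up to 3 counts. That limit is 0.112 to 0.231 CPM in the BRP columns and 0.202 to 3.58 CPM in the F columns. Intervals and limits of this kind cover counting error only, since amplified reads without molecular identifiers are not independent molecules.

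Marker genes differed between the blocks. The summed level of 10 astrocyte markers, among them the water channel gene Aqp4, was 4883 to 9352 CPM in the BRP564 block, where all 10 were detected in every column (at 10 exonic counts or more). It was 335 to 2653 CPM in 10 of the 12 columns of the BRP528 block, with 3 to 8 markers detected. One marker of this list, the glutamate transporter gene Slc1a2, had a lower median in the BRP564 block, 192 CPM, than in those 10 columns, 804 CPM, with overlapping ranges of 43.2 to 470 and 164 to 2459 CPM. The summed level of 8 neuron markers was 311 to 801 CPM in the BRP564 block and 4900 to 11070 CPM in the BRP528 block. Snap25, a synaptic vesicle fusion gene, ranged from 0 to 42.4 CPM and from 607 to 3699 CPM in these blocks. BRP528 and BRP529 stood apart within their block. Both held all 10 astrocyte markers, at 2371 and 9646 CPM in sum, together with all 8 neuron markers. BRP528 also held 3124 CPM of GABAergic markers, against at most 409 CPM in any other BRP column, and 0.0498 CPM of glutamatergic markers. Results for the BRP528 block are therefore given with and without these 2 columns. Markers of the oligodendrocyte line (6 genes) summed to 563 to 1311 CPM in the BRP564 block, and to 742 and 1261 CPM in BRP528 and BRP529. Of the other 10 columns, BRP541 had 974 CPM of them and the rest had at most 68.8 CPM. The part of these markers in the results was not tested. Markers of glutamatergic neurons (4 genes) reached at most 133 CPM in the BRP564 block and 246 to 1075 CPM in those 10 columns. In the BRP columns, markers of microglia, endothelium and fibroblasts summed to at most 46.6, 19.7 and 82.1 CPM. In the F block, 9 markers of GABAergic interneurons summed to 565 to 11886 CPM, with only 1 to 5 of the 9 detected per column. The 8 neuron markers summed to 1608 to 17800 CPM there, with 3 to 6 detected. The 10 astrocyte markers summed to 0.945 to 5637 CPM, with 0 to 4 detected. F7 had the 5637 CPM of astrocyte markers, with 4 of the 10 detected, mostly from Slc1a2 (4350 CPM) and Glul (1275 CPM). Gfap, Aqp4, Slc1a3 and Aldh1l1 had at most 1.38 CPM in any F column. F7 also had 3387 CPM of oligodendrocyte-line markers, with 3 of the 6 detected, mostly from Olig1 (3210 CPM). Its GABAergic markers summed to 1145 CPM. F16 had 2093 CPM of microglia markers, all of it from Csf1r, the only 1 of the 5 detected. F11 and F12 had a Pearson correlation of 0.954 over log2 CPM, whereas the next pair of F columns had 0.489. Whether both come from 1 cell was not tested. Both are listed, and block medians of the F columns are given with and without F12.

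Glycolysis turns glucose into pyruvate in the cytosol. Hexokinases (Hk genes) trap glucose as glucose 6-phosphate, phosphofructokinases (Pfk genes) commit the sugar to the pathway, and aldolases (Aldo genes) split it into triose phosphates. Lactate dehydrogenase (Ldh genes) interconverts pyruvate and lactate. Its tetramers mix the A subunit, known from tissues that make lactate, with the B subunit, known from tissues that use it. Aldoc is a classical astrocyte gene of the adult brain, and Hk2 is known as the inducible hexokinase. Exchange of lactate between astrocytes and neurons is a long-debated topic, in which the distribution of these isoforms is often cited.

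Short stretches upstream of 4 of the genes are shown, since Hk2 and Aldoc differed most between the BRP blocks and Ldha and Ldhb are the pair that sets the lactate dehydrogenase mixture. Each is the reference sequence from RefSeq on GRCm38.p6, 5′ to 3′ on the strand of the gene. All 9 genes matched the RefSeq table. Capitals mark ACGTG, the core of the element bound by hypoxia-inducible factor, or its reverse complement CACGT, with overlapping matches joined.
Hk2 upstream of its first start, chr6:82774455-82774704, minus strand: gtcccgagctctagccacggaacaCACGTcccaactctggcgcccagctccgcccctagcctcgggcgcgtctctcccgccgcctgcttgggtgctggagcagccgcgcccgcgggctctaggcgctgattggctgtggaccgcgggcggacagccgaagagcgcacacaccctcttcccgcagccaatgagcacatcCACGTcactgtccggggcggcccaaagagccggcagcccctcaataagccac
Aldoc upstream of its first start, chr11:78322823-78322967, plus strand: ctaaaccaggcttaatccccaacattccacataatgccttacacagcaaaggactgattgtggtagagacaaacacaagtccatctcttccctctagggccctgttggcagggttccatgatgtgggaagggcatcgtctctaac
Ldha upstream of its first start, chr7:46845554-46845803, plus strand: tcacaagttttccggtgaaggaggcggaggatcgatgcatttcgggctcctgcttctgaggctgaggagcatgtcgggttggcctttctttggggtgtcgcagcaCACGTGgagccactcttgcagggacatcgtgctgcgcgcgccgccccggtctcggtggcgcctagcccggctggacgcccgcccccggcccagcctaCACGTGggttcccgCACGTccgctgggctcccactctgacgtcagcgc
Ldhb upstream of its first start, chr6:142507958-142508207, minus strand: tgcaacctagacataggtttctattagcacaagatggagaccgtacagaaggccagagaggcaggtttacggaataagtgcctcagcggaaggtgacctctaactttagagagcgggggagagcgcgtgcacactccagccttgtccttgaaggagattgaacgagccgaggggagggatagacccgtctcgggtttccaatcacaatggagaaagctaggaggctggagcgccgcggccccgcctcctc
The stretch of Hk2 held 2 matches and that of Ldha held 3, whereas the stretches of Aldoc and Ldhb held 0. Over the 250 bases before each annotated start, 4 of the 9 genes (Hk2, Pfkm, Aldoa and Ldha) held the motif at 1 start or more, in 6 of the 17 windows of all 9 genes. Of all 32851 windows of this length, 16.6% held it. A match describes these letters only. Hk2 and Ldha, both with matches, had unlike patterns over the columns, as given below for each.

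The shares within each family were set by length, as exonic counts per kb of the merged coding-transcript exons. In the BRP564 block, the median share of Hk2 in the hexokinase pair was 35.3%, and the median share of Aldoc in the aldolase pair was 54.4%. In the BRP528 block, both medians were close to 0, at 0% and 0.056%. The Pfkm and Pfkp shares had nearly equal medians in both blocks. Ldhb led Ldha in all 8 columns of the BRP564 block and in 10 of 12 of the BRP528 block. Family counts were at least 951 in every BRP column, and the widest 95% exact binomial interval of an unscaled share there spanned 5.91 percentage points. In the F block the family counts went down to 0, so its shares are read only where the counts allow.

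**Figure D1:**
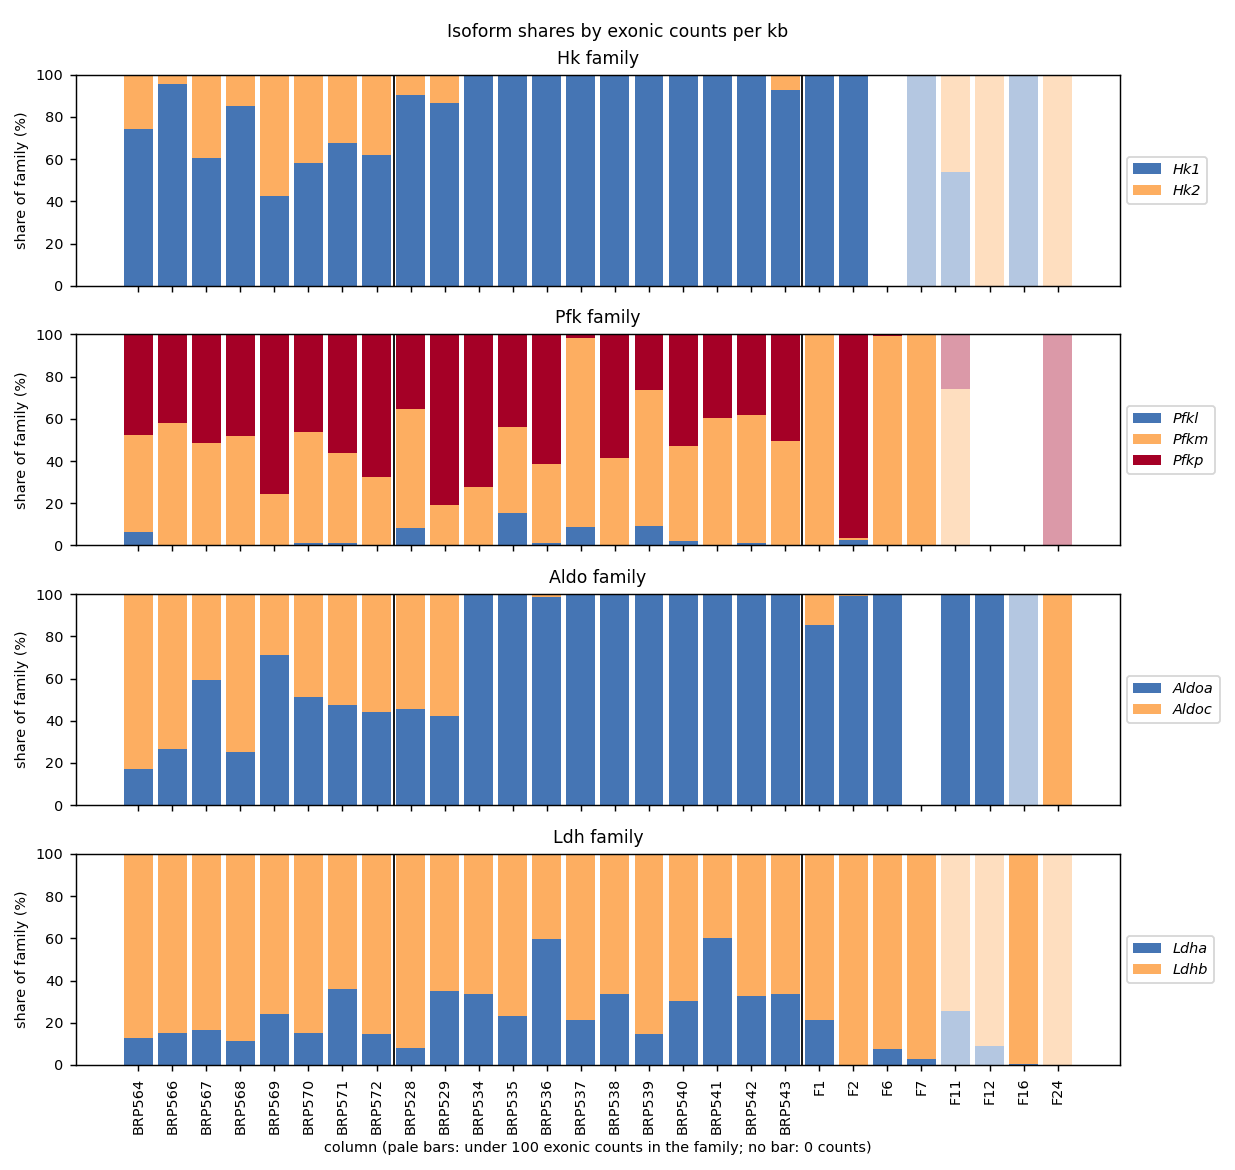
Stacked bars give the share of each isoform (percent of exonic counts per kb of its family) in each of the 28 columns, and vertical lines separate the BRP564, BRP528 and F blocks. Hk2 and Aldoc take a median of 35.3% and 54.4% in the BRP564 block, and in the BRP528 block they are seen mainly in BRP528 and BRP529, with Hk2 also in BRP543. Pale bars rest on under 100 counts.

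Hk1 (chr10:62268855-62379908, minus strand, GRCm38), which encodes the hexokinase that is constitutive in brain, was present in all 20 BRP columns. Its level ranged from 35.0 to 103.1 CPM in the BRP564 block, with a median of 67.9, and from 102.9 to 564 CPM in the BRP528 block, with a median of 222. The blocks touched by the narrowest margin, since the highest column of the first (BRP567) lay just above the lowest of the second (BRP528). Without BRP528 and BRP529 the lowest value of the second block was 117 CPM, and the blocks did not overlap. The log2 difference of the block medians, BRP564 minus BRP528 on log2(CPM + 1), was -1.70. It was -0.83 with DESeq2 size factors, under which the median of all 14274 genes compared moved from 0.09 to 0.75. All differences between blocks are to be read against that shift. In the F block, Hk1 had 556 CPM in F2 and 26.8 CPM in F1, and the other 6 columns had at most 1 count.

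Hk2 (chr6:82725025-82774454, minus strand), whose upstream stretch held 2 motif matches, was detected in all 8 columns of the BRP564 block. Its level ranged from 3.06 CPM in BRP566 to 78.5 CPM in BRP567, with a median of 33.6. In the BRP528 block, 8 of 12 columns had 0 counts and BRP534 had 1 count. The remaining columns were BRP528 with 12.9 CPM, BRP529 with 18.5 CPM and BRP543 with 22.0 CPM. BRP543 was the only column of the other 10 to reach 10 counts. Its 5091 hexokinase counts gave Hk2 a share of 7.40%, and its Aldoc level was 0.0510 CPM. The blocks overlapped for Hk2, because these columns lay above BRP566. In BRP569 Hk2 led Hk1, at 57.7% of the pair, and this was the only BRP column in which it did. No F column had more than 2 Hk2 exonic counts.

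The aldolase pair separated the blocks most clearly. Aldoc (chr11:78322968-78327781, plus strand), the brain-type aldolase, ranged from 175 CPM in BRP569 to 1877 CPM in BRP564, with a median of 533. In the BRP528 block, 3 of 12 columns had 0 counts. Except for BRP528 (589 CPM) and BRP529 (271 CPM), the highest value was 10.4 CPM in BRP536, and the median of those 10 columns was 0.0923 CPM. Without the 2 columns, the lowest value of the BRP564 block was above the highest of the other block, and this held with TMM factors and with DESeq2 size factors. Aldoc took 29.1% to 82.7% of the aldolase pair in the BRP564 block, 54.2% in BRP528 and 57.8% in BRP529, and at most 1.52% in the other 10. It led Aldoa in 5 of 8 columns of the BRP564 block.

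Among the BRP columns, those high in Aldoc were those with the full set of astrocyte markers. All 10 BRP columns in which the 10 astrocyte markers were detected had an Aldoc share of at least 29.1%. This did not hold in the F block, where F24 and F1 had 556 and 205 CPM of Aldoc with 0 and 2 of these markers detected. Whether BRP528 and BRP529 each hold RNA of more than 1 cell was not tested.

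Aldoa (chr7:126795234-126800751, minus strand), the ubiquitous aldolase, was present in every BRP column. Its level ranged from 143 to 431 CPM in the BRP564 block, with a median of 226, and from 122 to 712 CPM in the BRP528 block, with a median of 398. The blocks overlapped. Without BRP528 and BRP529 the second block ranged from 341 to 712 CPM, and only BRP570 (431 CPM) of the BRP564 block reached into it. Per kb of exon, the summed aldolase level had a median of 296 CPM per kb in the BRP564 block and 226 CPM per kb in the BRP528 block, with overlapping ranges of 166 to 762 and 158 to 391. The log2 difference of the Aldoa medians was -0.81, and it was -0.07 with DESeq2 size factors.

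**Figure D2:**
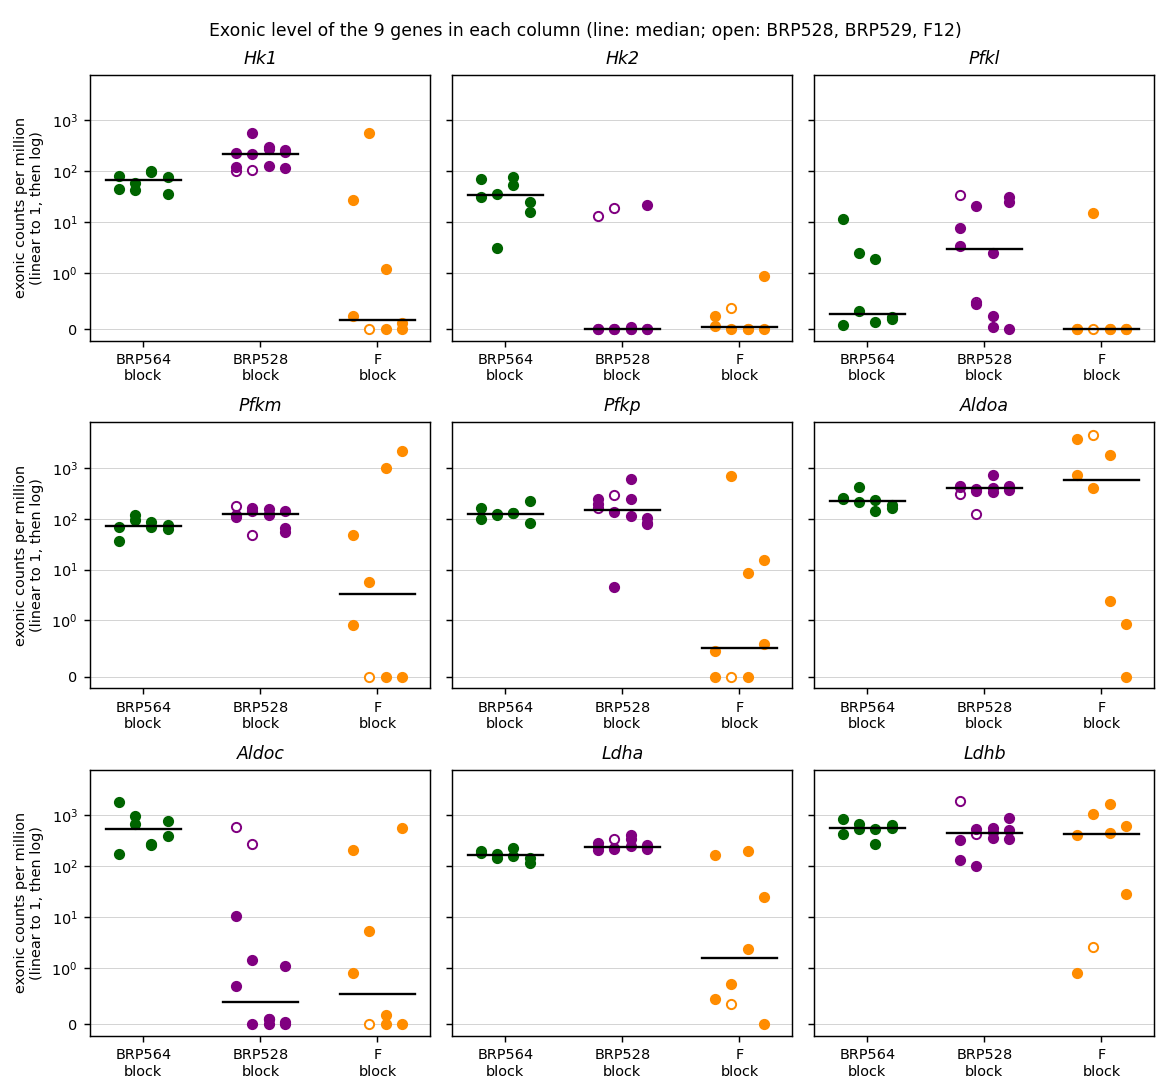
Each panel plots the exonic level of 1 gene in CPM (axis linear up to 1 and logarithmic above) for each column of the BRP564, BRP528 and F blocks, with black lines at the block medians and open points for BRP528, BRP529 and F12. Aldoc lies between 175 and 1877 CPM in the BRP564 block and below 11 CPM in the BRP528 block apart from the 2 open points, whereas the Ldhb range of the BRP564 block, 280 to 870 CPM, lies within that of the BRP528 block, 103 to 1886 CPM.

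Ldhb (chr6:142490249-142507957, minus strand), the B subunit of lactate dehydrogenase, had the highest level per kb of the 9 genes in both BRP blocks, with medians of 433 and 349 CPM per kb. Its level ranged from 280 to 870 CPM in the BRP564 block, with a median of 565, and from 103 to 1886 CPM in the BRP528 block, with a median of 455. The first range lay within the second. The log2 difference of the Ldhb medians was 0.31, and it was 1.21 with DESeq2 size factors. Without BRP528, which held the highest value and the GABAergic markers, the BRP528 block reached 881 CPM in BRP539. Ldha (chr7:46841475-46855627, plus strand), the A subunit, ranged from 119 to 227 CPM in the BRP564 block, with a median of 167, and from 206 to 419 CPM in the BRP528 block, with a median of 245. Only BRP571 of the BRP564 block reached into the range of the BRP528 block. The log2 difference of the Ldha medians was -0.55, and it turned to 0.30 with DESeq2 size factors.

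The Ldhb share was 64.2% to 88.7% in the BRP564 block, with a median of 84.9%. In the BRP528 block it was 39.9% to 91.9%, with a median of 67.0%. Ldha led in BRP536, with 59.7% of the pair, and in BRP541, with 60.1%. These 2 columns had the lowest Ldhb levels of their block, 132 and 103 CPM, and Ldha levels of 285 and 224 CPM that lay within the range of the others. BRP541 also had the highest Hk1 level of all columns, 564 CPM, and it is the column with 974 CPM of oligodendrocyte-line markers, whose part in these values was not tested. In the BRP564 block, BRP571 had the lowest Ldhb level, 280 CPM, and the highest Ldha level, 227 CPM. Parts of both transcripts also occur elsewhere in the genome. At 95% identity or more, 76.8% of the Ldhb transcript was found in the processed pseudogene Gm5514, and 55.0% of the Ldha transcript in Gm9247. None of these pseudogenes is listed in the exonic table, and how reads from shared stretches were counted is not given in the sources used here, so the Ldha and Ldhb levels are uncertain to that degree.

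Of the phosphofructokinases, Pfkm (chr15:98092589-98132451, plus strand), the muscle form, ranged from 36.2 to 117 CPM in the BRP564 block, with a median of 71.9. It ranged from 48.8 to 178 CPM in the BRP528 block, with a median of 123. Pfkp (chr13:6579768-6648777, minus strand), the platelet form, ranged from 83.1 to 228 CPM and from 4.48 to 596 CPM, with medians of 126 and 149. The ranges overlapped for both genes. The log2 differences of the medians were -0.77 for Pfkm and -0.24 for Pfkp, and with DESeq2 size factors they turned to 0.05 and 0.46. Pfkm took 24.4% to 57.7% of the family in the BRP564 block and 19.0% to 89.3% in the BRP528 block, with medians of 47.2% and 47.3%. The Pfkp shares had medians of 49.9% and 47.2%. The split between both depends on the exon length used: with the exons of all annotated transcripts, the Pfkm medians were 70.6% and 71.1%. Exons of Pfkp overlap those of Pitrm1 on the opposite strand by 748 bases, and the strand setting of the counts is not given in the sources used here.

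BRP537 departed from all other BRP columns for Pfkp. It had 120 exonic Pfkp counts, or 4.48 CPM, and a Pfkp share of 1.69%, while its Pfkm level of 166 CPM lay within the range of its block. The next lowest Pfkp level in the block was 80.1 CPM. The same column held 558 intronic Pfkp counts, so that 82.3% of its Pfkp counts fell in introns. Pfkl (chr10:77986947-78010083, minus strand), the liver form, was the minor member. It reached 10 exonic counts in 3 of 8 columns of the BRP564 block, 8 of 12 of the BRP528 block and 1 of 8 of the F block. Its highest levels were 33.5 CPM in BRP528 and 30.6 CPM in BRP535. In BRP535 it made up 15.2% of the family, its highest share. Its median share was 0.124% in the BRP564 block and 0.967% in the BRP528 block.

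The order of the levels per kb was the same at its top and differed below it. In the BRP564 block Ldhb was followed by Aldoc (179 CPM per kb), Aldoa (124), Ldha (88.1), Pfkp (29.2), Pfkm (23.97), Hk1 (14.0), Hk2 (5.99) and Pfkl (0.0718), each value a block median. Ldhb was above Aldoc in 8 of 8 columns, Ldha above Pfkp in 8 of 8, and Pfkm above Hk1 in 8 of 8. Aldoc and Aldoa were not separated (Aldoc higher in 5 of 8), nor were Pfkp and Pfkm (Pfkp higher in 5 of 8). In the BRP528 block Ldhb was followed by Aldoa (218 CPM per kb), Ldha (129), Hk1 (45.8), Pfkm (41.0), Pfkp (34.7), Pfkl (0.792), Aldoc (0.131) and Hk2 (0). Ldha was above Hk1 in 12 of 12 columns. Hk1, Pfkm and Pfkp were not separated there, with Hk1 above Pfkm in 8 of 12 columns and Pfkm above Pfkp in 5 of 12.

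The count of genes with no overlap between the BRP blocks gives the frame for these differences. Of the 14274 genes with at least 100 exonic counts over the BRP columns, 3.66% had every column of the BRP564 block above every column of the BRP528 block, and 2.89% had every column below. With all 12 columns, 0 of the 9 genes were in either class. Without BRP528 and BRP529, 5.71% of all genes were above and 4.38% below, and 1 of the 9 genes fell in each class, Aldoc above and Hk1 below. With DESeq2 size factors and without these 2 columns, Hk1 overlapped again, beside 1367 of all genes above and 400 below. With TMM factors and without the 2 columns, Ldha joined Hk1 in the class below, beside 734 of all genes above and 683 below. With all 12 columns, TMM factors also put Hk1 and Ldha in the class below. The count of all genes in that setting is not given here, so this result is not set against it. A count of 1 in 9 is not set apart from the shares of 5.71% and 4.38%, and the counts under other scalings were not tested.

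Of 38 other genes of glucose transport, glycolysis and lactate handling, 30 had at least 100 exonic counts over the BRP columns, and 1 of these 30 did not overlap between the blocks with all 12 columns. This was Slc2a3, the glucose transporter gene known from neurons, with 0.849 to 155 CPM in the BRP564 block and 211 to 1003 CPM in the BRP528 block. A count of 1 in 30 is not set apart from the 2.89% of all genes in the class below. With DESeq2 size factors Slc2a3 overlapped with all 12 columns and did not overlap without BRP528 and BRP529. In the latter setting Mpc1 of the list also did not overlap, with the BRP564 block above, beside 1367 of all 14274 genes above. Of other hexokinase genes, Hk3 had at most 0.306 CPM in a column and Hkdc1 at most 3.81 CPM. Ldhc, the testis form, had 0 counts in all 28 columns, and Ldhd, the enzyme for D-lactate, at most 6.14 CPM.

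Within the BRP564 block, Aldoc and Ldhb were ordered alike over the 8 columns, with a Spearman's rho of 0.952. Hk2 ran the other way, with a rho of -0.738 to Aldoc and -0.762 to Ldhb. Pfkp had a rho of -0.714 to Aldoc. The column BRP564 was highest in Aldoc and Ldhb, with 1877 and 870 CPM. BRP569 was lowest in Aldoc, with 175 CPM, and its Ldhb level of 438 CPM was the next to lowest. Its Hk2 level of 69.9 CPM was exceeded only by that of BRP567. Over the 12 columns of the BRP528 block, the same pairs had a rho of 0.239 (Aldoc and Ldhb), 0.323 (Aldoc and Hk2) and 0.200 (Hk2 and Ldhb). There Hk2 had 0 counts in 8 of the 12 columns, and Aldoc had at most 2 counts in several. The ranks of both rest largely on ties and counting error, so these 3 values do not show whether the relation is absent. The rho values describe 36 pairs of genes over few columns that share their totals, and no p-value is attached to them.

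**Figure D3:**
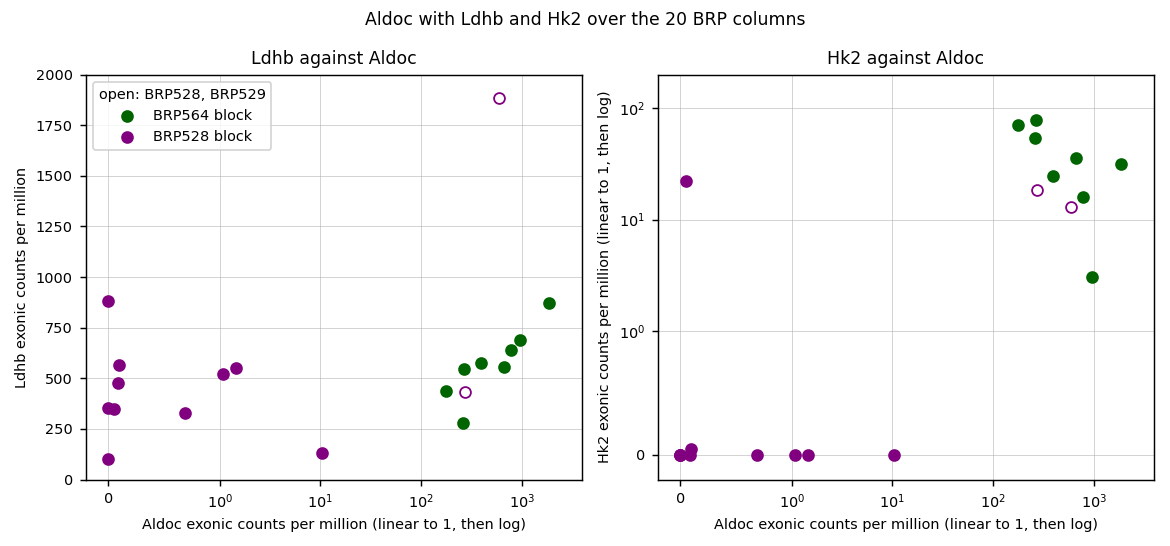
The left panel plots Ldhb against Aldoc and the right panel Hk2 against Aldoc, in exonic CPM for each of the 20 BRP columns, with open points for BRP528 and BRP529 (logarithmic axes are linear up to 1). In the BRP564 block, Ldhb is ordered as Aldoc is (rho of 0.952) and Hk2 runs the opposite way (rho of -0.738).

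The genes most like each member were found by Spearman's rho over the 20 BRP columns among 10168 genes with at least 10 counts in at least 10 of them. The columns form blocks, so a high rho over all 20 columns can come from the blocks alone. The values in parentheses are the rho over all 20, within the 12 of the BRP528 block and within the 8 of the BRP564 block, in this order. Hk1 was most like Galnt9 (0.924 and 0.867, with no value for the 8), Tspan13 (0.922, 0.776 and 0.667) and Klhl2 (0.920, 0.888 and 0.262). Hk2 was most like Klf2 (0.958, 0.970 and 0.690), Chmp2a (0.904, 0.778 and 0.952) and Nid2 (0.900, 0.863 and 0.357). Of these, Klf2 is a transcription factor gene. As Hk2 had 0 counts in 8 of the 12 columns of the BRP528 block, its values within these 12 rest mainly on the few others. Pfkl was most like Dtnb (0.780, 0.839 and 0.452), Ttc14 (0.771, 0.797 and 0.452) and Tab1 (0.759, 0.720 and 0.524). Pfkm was most like Zfp707 (0.814, 0.797 and 0.381), Srrm4 (0.776, 0.706 and 0.299) and C1qtnf4 (0.776, 0.818 and 0.610). Pfkp was most like Prkdc (0.720, 0.713 and 0.881), Zfp830 (0.712, 0.762 and 0.810) and Eif5 (0.702, 0.902 and 0.690). For the aldolases, Aldoa was most like Bag6 (0.848, 0.783 and 0.857), Tacc1 (0.836, 0.783 and 0.429) and Actr3b (0.821, 0.776 and 0.488), and Aldoc was most like Man1c1 (0.893, 0.725 and 0.833), Papss2 (0.882, 0.613 and 0.810) and Ctsh (0.878, 0.746 and 0.405). Man1c1 encodes a mannosidase. For lactate dehydrogenase, Ldha was most like Dctn1 (0.880, 0.727 and 0.262), Cds2 (0.874, 0.734 and 0.452) and Sestd1 (0.874, 0.811 and 0.476), and Ldhb was most like Mcts1 (0.812, 0.727 and 0.643), Decr2 (0.725, 0.727 and 0.571) and Trappc6a (0.673, 0.740 and 0.310).

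Intronic counts differed widely between the genes and between columns. The introns of Aldoc (1.55 kb in sum) and Aldoa (2.61 kb) are short. Aldoc had 0 intronic counts in all 28 columns and Aldoa had counts in only 2, BRP535 with 1 and BRP539 with 4. Pfkp, with 55.6 kb of introns, had a median of 2.81 intronic CPM (per 1000000 intronic counts) in the BRP564 block and 95.1 in the BRP528 block. The ranges overlapped, at 0 to 291 and 0.972 to 1529.6 intronic CPM. The block of 12 fell apart by column: BRP529, BRP534, BRP536 and BRP541 had 2 to 7 intronic Pfkp counts, whereas the other 8 had 103 to 4513. Hk1, whose introns sum to 102.5 kb, had a median of 4.79 intronic CPM in the BRP564 block and 31.3 in the BRP528 block, again with overlapping ranges, 0.844 to 48.0 and 0.339 to 234.

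Ldhb had a median of 95.8 intronic CPM in the BRP564 block and 4.40 in the BRP528 block, with overlapping ranges of 0 to 725 and 0 to 60.9. The first median rests on single columns: with any 1 of BRP564, BRP567, BRP568 and BRP572 left out it was 6.01 intronic CPM. In the BRP564 block, BRP567, BRP568 and BRP572 held 706, 859 and 773 intronic Ldhb counts, BRP564 held 180, and the other 4 columns held 0 to 9. For a gene with at least 280 exonic CPM in every column of that block, the intronic counts were thus present in some columns and at or near 0 in others. Hk2 had at most 17 intronic counts in any BRP column, against 48 to 1271 exonic counts in the BRP564 block. The intronic share of all counts was 5.67% to 13.0% per column in the BRP564 block and 8.91% to 38.8% in the BRP528 block, and its part in these differences was not tested.

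**Figure D4:**
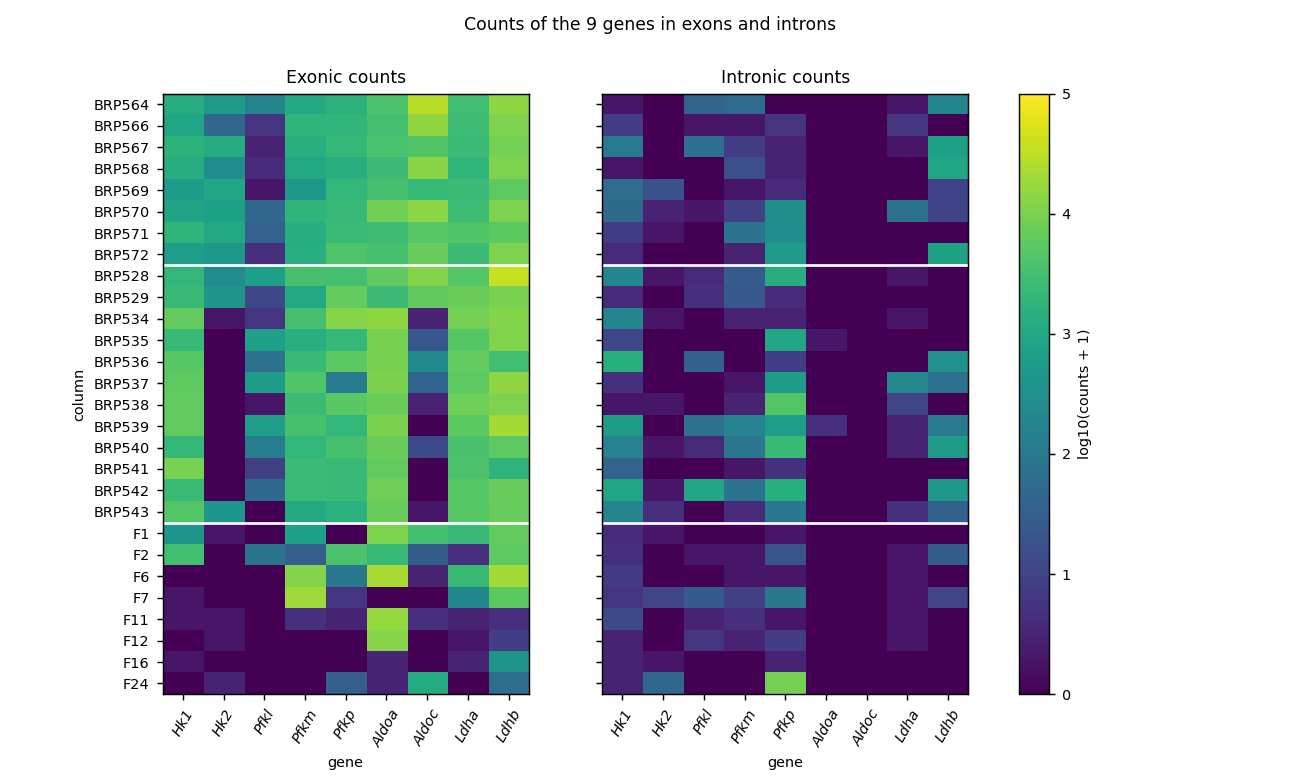
The heat maps give log10(counts + 1) of the 9 genes in exons (left) and introns (right), with a row for each of the 28 columns and white lines between the BRP564, BRP528 and F blocks. Aldoc is at 0 in introns throughout, while Pfkp holds 4513 intronic counts in BRP538 and 8867 in F24.

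The F block was sparse, with each of Hk1, Pfkm, Pfkp, Aldoa and Aldoc at most at 1 CPM in some columns and above 500 CPM in others. Ldhb was the only member with a count in all 8 columns, from 0.911 CPM in F11 to 1684 CPM in F6, with a median of 441 CPM (462 CPM without F12). In the 5 columns with at least 100 counts of the pair, its share was 99.95% in F2, 99.6% in F16, 97.4% in F7, 92.5% in F6 and 78.6% in F1. Aldoa had 1840 CPM in F6, 3681 in F11 and 4509 in F12, and 0 counts in F7. Without F12 its median was 407 CPM in place of 567. In each of F11 and F12, the other 8 members together were near 0, with at most 7 counts for any of them. Aldoc was high in 2 columns, F24 with 556 CPM and F1 with 205 CPM. In F24 it took 99.7% of the aldolase pair, while none of the 10 astrocyte markers was detected there and their summed level was 0.945 CPM.

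Single members carried a family in single F columns. Pfkm had 2150 CPM in F7, and 990 CPM in F6, which was 99.98% and 99.4% of the family there. F7 is the column with high sums of astrocyte markers (mostly Slc1a2 and Glul) and of oligodendrocyte-line markers (mostly Olig1). The part of these genes in its Pfkm and Ldhb values was not tested. Pfkp had 688 CPM in F2 and took 96.5% of the family. F2 was also the only F column with more than 30 CPM of Hk1, and the only one with Pfkl, at 15.0 CPM. Hk1 took all 3077 hexokinase counts of F2 and 99.8% of the pair in F1. The hexokinase family had under 100 counts in the other 6 columns. F24 held 8867 intronic and 32 exonic Pfkp counts, and 45 intronic and 2 exonic Hk2 counts. Intronic counts made up 5.31% of all counts in F1 and 36.3% to 63.0% in the other F columns. Genes at 0 were found in deep and shallow F columns alike, among them Pfkp in F1 (14831505 exonic counts) and Hk1 in F6 (12043599 exonic counts).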

How the data were processed

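RNA from 28 single cells was sequenced. The authors deposited 2 tables of whole-number counts per gene and column, for exons and for introns, without normalization. The submitters' processing notes list bcl2fastq 2.17, STAR 2.4.0 and mm10. The counting tool, annotation and strand setting are not given in the sources used here. No column code matches a label, so blocks of codes were described by range and median, without tests.

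CPM were taken over exonic or intronic totals. Isoform shares used counts per kb of merged exons of basic coding transcripts (GENCODE M21, GRCm38). Copies were searched with BLAST 2.17.0 (at least 95% identity over 50 bases). A member was named with the 3 genes most like it, list genes where the BRP blocks did not overlap or where they belong to the 4 families, and marker genes by block; some genes of the list are not reported here. Members and lists were chosen with earlier results of these data known. Calculations ran in Python 3.11.15 (pandas 2.3.3, numpy 2.4.6, scipy 1.17.1, matplotlib 3.10.9). TMM factors from edgeR 4.0.16 and size factors from DESeq2 1.42.0, in R 4.3.3, were alternative scalings only, the latter resting on 226 genes with a count in every column. The steps were tested on simulated data. Other alternatives were exon lengths, count filters, summed counts, another denominator for introns, and single columns left out; those without BRP528 and BRP529 or without F12, and the exons of all transcripts, were added after the data were examined.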

Additional observations from a re-analysis of the deposited data

Results flagged for a closer look

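In the BRP564 block and the F block, the highest and the lowest column were compared with the nearest other column by Dixon's rule. Of 36 sets of values, 13 were flagged. The rule assumes independent, normally distributed values. These levels are skewed and often 0, and shares within a family are tied to each other. The count of flags can therefore not be set against chance. In the BRP564 block, the column BRP564 stood apart with 1877 CPM of Aldoc and 11.3 CPM of Pfkl, the latter being 6.16% of its family, and BRP570 with 431 CPM of Aldoa. In the F block, F2 stood apart with 556 CPM of Hk1, 688 CPM of Pfkp and 15.0 CPM of Pfkl, or 2.42% of its family. F7 stood apart with 2150 CPM of Pfkm. F24 stood apart with 556 CPM of Aldoc, which was 99.7% of the aldolase pair and left 0.276% for Aldoa, and with 0.945 CPM of Hk2, which rests on 2 counts. Values in the sparse F columns are mostly at or near 0, so that 1 high column is enough to be set apart. The rule was not run on the 12 columns of the BRP528 block, which the critical values used here did not cover.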

How the results depend on the processing

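Isoform shares moved by less than the spread (standard deviation) over a block's columns in 230 of 234 recalculations, exonic levels in 175 of 180 and intronic levels in 99 of 99, including every column left out in turn. This spread is wide where columns differ, as for Pfkm in the F block (786 CPM at a median of 3.26 CPM). A result there could hardly move, so these counts do not show that it is stable. The intronic Ldhb median of the BRP564 block counted as unmoved, although it rests on single columns. With the exons of all annotated transcripts, the Pfkm share was 70.6% (BRP564 block) and 71.1% (BRP528 block) and the Pfkp share 26.5% and 25.2%, since Pfkp then counts 13.4 kb in place of 4.30 kb. With TMM factors, Pfkm was at 47.4 CPM and Ldha at 116 CPM in the BRP564 block. With DESeq2 size factors, Pfkm was at 53.0, Aldoa at 174 and Ldha at 112 CPM in the BRP528 block. Among the 9 genes and the list, the count above was 1 without BRP528 and BRP529 (0 with them). The count below was 1, becoming 0 under DESeq2 size factors, 3 under TMM factors and 2 without the 2 columns. The count of all genes under TMM factors with all 12 columns is not given here. Of all genes, 523 were above, 1013 with DESeq2 size factors and 815 without the 2 columns; 413 were below, 246 and 625. The correlations moved in 8 of 54 recalculations, 7 with DESeq2 size factors (Pfkm, Aldoa, Ldha) and 1 with Pearson's r (Ldhb and Mcts1). Beyond the lengths and the columns left out, the cause was not tested. No paired analysis was possible because the columns carry no replicate number. Depth limits the F block, where a gene at 0 may be at up to 3.58 CPM by counting error alone. Genes with an exonic count numbered 2338 to 7218 per column there. They numbered 10985 to 12815 in the BRP564 block and 9869 to 12564 in the BRP528 block. F6 had only 3858 such genes at 12043599 exonic counts. The part of this low number of genes in the zeros and the high single values of the F block was not tested.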

Other observations

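Some other genes of lactate and pyruvate handling, singled out after their values were seen, differed in median between the BRP blocks with overlapping ranges. Slc16a1, which encodes the monocarboxylate transporter MCT1, had 31.2 to 316 CPM in the BRP564 block, with a median of 210, and 0.0487 to 67.4 CPM in the BRP528 block, with a median of 13.2. Slc16a7, which encodes MCT2, was at 0 in 6 of 8 columns of the first block and had a median of 13.7 CPM in the second, with up to 103 CPM. Pdk4, an inhibitory kinase of pyruvate dehydrogenase, ranged from 0 to 36.5 CPM in the BRP564 block and had at most 0.0569 CPM in the BRP528 block. Eno2, the neuron-type enolase, had medians of 0.633 and 37.0 CPM, and 8801 and 10643 CPM in F11 and F12.

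Gapdh and Eno1, usually among the most abundant glycolytic transcripts, were low in these tables. Gapdh had 8.68 to 64.7 CPM in the BRP columns, and Eno1 had at most 0.494 CPM in any column. At 95% identity or more, 88.0% of the Gapdh transcript was found in at least 1 of 82 other genes, and 85.6% of the Eno1 transcript in at least 1 of 3. The part of these copies in the low counts was not tested.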
